A study of Mus musculus with 12 samples.

Results

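The tight junction genes of the brain vessel wall and related epithelia were followed through RNA of newborn mouse brain: Cldn5, Cldn12, Ocln, Marveld2, Lsr, F11r, Jam2, Tjp1 and Cgnl1. They were found by gene symbol, and all 9 had an entry of their own among the 23983 entries of each deposited table. The 4 groups hold 3 libraries each, all taken at postnatal day 0 from mice of a mixed strain: vKO cortex, WT cortex, vKO subcortex and WT subcortex. The vKO mice, labelled Reck flex2/Δex1; Tie2Cre, use a Tie2-driven Cre, which is known to act in blood lineages as well as in endothelial cells, and the control mice are labelled wild type. Each deposited table compares the genotypes within 1 tissue and gives 1 FPKM value per gene and group, that is fragments scaled to the length of the transcript and to the reads of the library. Levels are set across tissues as a description only, since the tables may have been normalized separately. The tables list no value per library, so no SD could be given, no order of levels could be tested, and sequencing depth is unknown. The words rose and fell are kept for genes to which the authors' deposited table gives a q-value under 0.05. Ratios are log2((vKO FPKM + 1)/(WT FPKM + 1)), a scale that makes changes of low genes look smaller, and a positive ratio means higher in vKO.

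Tight junctions seal the gap between neighbouring cells and are a defining feature of the blood-brain barrier. Claudins form the paired strands that close the gap, occludin and the junctional adhesion molecules sit in the same belt, tricellulin and its partner LSR seal the points where 3 cells meet, and cytoplasmic scaffolds such as ZO-1 tie the strands to actin. Wnt7 ligands of the neural tissue act through Reck and Gpr124 on endothelial cells to switch on beta-catenin signalling, which is known to build and keep this barrier.

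Several facts of the whole series bear on the values below. The cortical genes were far higher in cortex than in subcortex and went both ways between genotypes: Neurod6 had 168 FPKM in vKO and 98.3 in WT cortex, Tbr1 had 22.2 in vKO and 29.0 in WT cortex, and Emx1 had 15.3 in vKO and 13.3 in WT cortex, against at most 6.61 FPKM for any of them in subcortex. The subcortical genes Tcf7l2, Isl1, Gbx2, Lhx9, Sim1 and Drd1a summed to 16.7 FPKM in vKO and 26.3 in WT cortex, against 74.3 in vKO and 78.6 in WT subcortex. In cortex Tcf7l2 fell, with 1.07 FPKM in vKO and 4.71 in WT, as did Lhx9, with 2.29 in vKO and 3.76 in WT. All 4 that were tested in cortex had ratios below 0. Isl1 and Drd1a went against the sums, with higher levels in cortex than in subcortex. Drd1a had 5.52 FPKM in vKO and 7.21 in WT cortex, against 1.15 in vKO and 1.33 in WT subcortex. Reck itself was listed at 3.23 FPKM in vKO and 2.91 in WT cortex, and at 3.49 in vKO and 2.37 in WT subcortex, with q-values of 0.639 and 0.333 in the authors' deposited table. Counted over the whole gene and the whole tissue, it does not check the deletion in the cells with Cre. In cortex, ratios ran with transcript length: the median ratio was 0.26 for entries under 2000 bases and -0.31 for those of 6000 bases or more, against -0.00 and 0.00 in subcortex. Blood and immune genes moved in cortex too, as 8 of 10 tested microglial genes rose and none fell (8.15% of all tested entries were called higher), and the erythroid gene Alas2 rose, with 34.6 FPKM in vKO and 5.70 in WT cortex. Their part in the values below was not tested. Xist stood at 18.6 FPKM in vKO and 0.0417 in WT cortex, and at 10.2 in vKO and 0.0369 in WT subcortex. The Y-linked genes were lower in vKO but far from 0, Eif2s3y with 15.8 FPKM in vKO and 30.4 in WT cortex and Ddx3y with 13.1 in vKO and 16.8 in WT cortex. Sex composition and genotype thus cannot be told apart in either tissue.

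Cldn5 was the tight junction gene with the highest FPKM in all 4 groups and the one with the lowest ratio in cortex. Claudin-5, the protein it encodes, is the main strand-forming claudin of brain endothelium. It had 24.6 FPKM in vKO cortex and 46.8 FPKM in WT cortex, and 37.6 FPKM in vKO subcortex and 42.1 FPKM in WT subcortex. The vKO cortex thus stood apart from 3 groups whose values lay between 37.6 and 46.8 FPKM. In cortex it fell by 47.3% (log2 ratio -0.90), with q = 0.000806 in the authors' deposited table. Only 1.46% of all tested entries of the cortex had a lower ratio. In subcortex the ratio was -0.16 and the q-value 0.999 in the authors' deposited table, so no difference was called there. Whether the genotype effect differs between the tissues was not tested, since the tables hold no replicate values. The gene (chr16:18776847-18778262 of mm10, plus strand) is a single exon of 1416 bases, of which 654 are coding, and no other annotated gene overlaps it. The tested entries of like length had a median ratio of 0.27 in cortex, so with the trend of ratios with length removed the ratio of Cldn5 was -1.17. In whole tissue, fewer endothelial cells and less Cldn5 RNA per cell cannot be told apart.

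Cldn12, the other claudin of the set, encodes a protein that lacks the usual binding motif for the scaffolds at its end. It had 6.88 FPKM in vKO cortex and 5.41 FPKM in WT cortex, and 6.55 FPKM in vKO subcortex and 7.32 FPKM in WT subcortex. The values lay above WT in the vKO cortex and below WT in the vKO subcortex, and neither difference was called: the q-values were 0.140 and 0.999 in the authors' deposited table. Its ratio in cortex, 0.30, was thus on the other side of 0 from that of Cldn5.

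**Figure D1:**
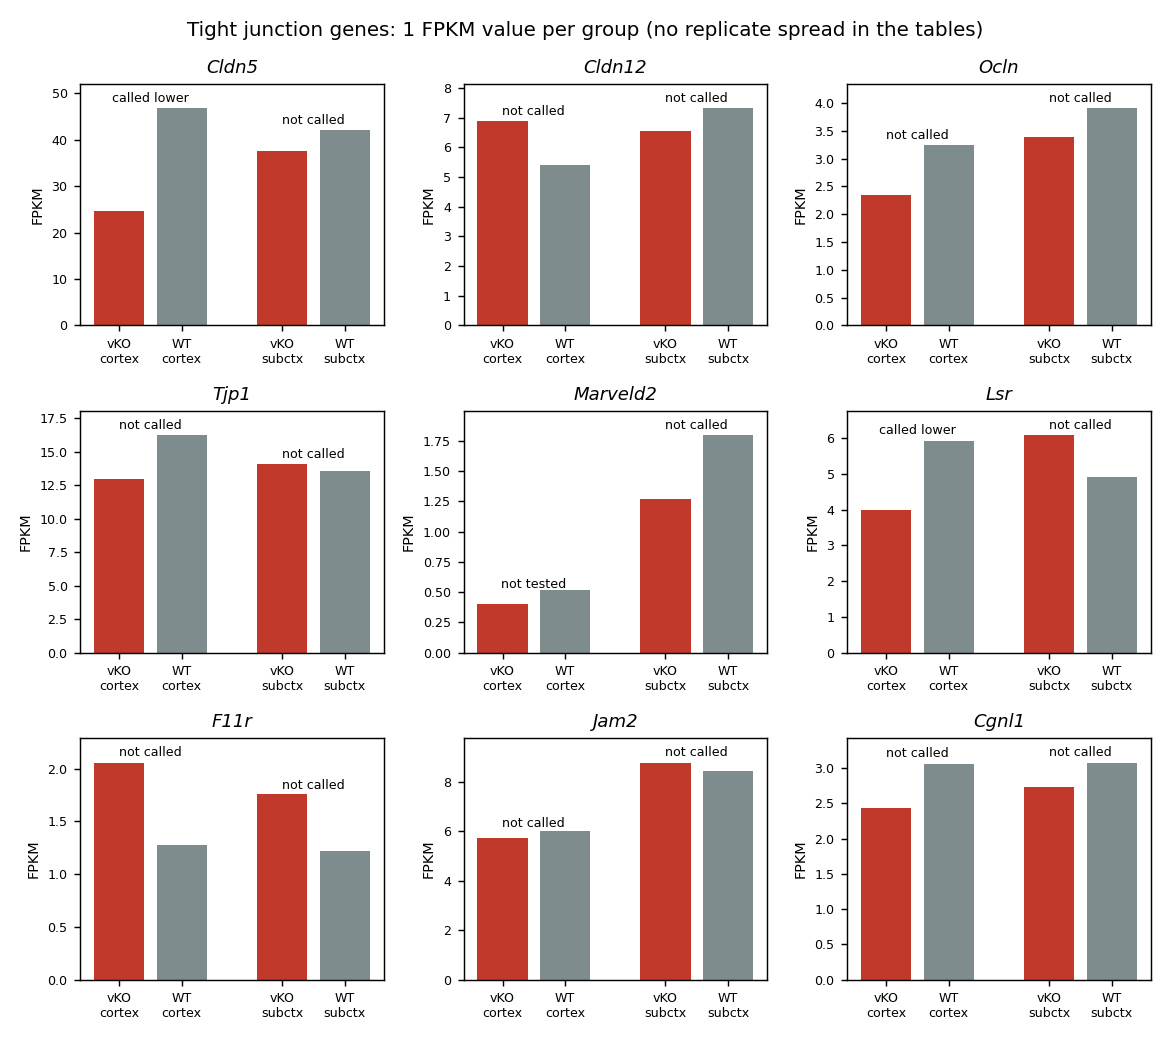
FPKM of the 9 tight junction genes in vKO cortex, WT cortex, vKO subcortex and WT subcortex, with 1 bar per group and no error bar because the tables give 1 value per group. Cldn5 stood at 24.6 FPKM in vKO cortex and 46.8 in WT cortex, and Cldn5 and Lsr are the genes marked as called lower.

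The genes of tricellular contacts were Lsr and Marveld2. Lsr encodes angulin-1, also known as the lipolysis-stimulated lipoprotein receptor, which recruits tricellulin to the corners between cells. It had 3.99 FPKM in vKO cortex and 5.93 FPKM in WT cortex, and 6.08 FPKM in vKO subcortex and 4.92 FPKM in WT subcortex. The vKO group was therefore the lower one in cortex and the higher one in subcortex. In cortex Lsr fell by 32.8% (log2 ratio -0.47), with q = 0.0350 in the authors' deposited table. In subcortex its ratio was 0.26 and the q-value 0.999 in the authors' deposited table. With the length trend removed the ratio in cortex was -0.59. The gene (chr7:30957770-30973464 of mm10, minus strand) overlaps 2 annotated antisense genes, and the sources used here do not state whether fragments were counted by strand.

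Marveld2, the gene of tricellulin, had the lowest FPKM of the 9 genes in cortex, 0.400 in vKO and 0.519 in WT, and was marked there as too low to test. In subcortex it had 1.27 FPKM in vKO and 1.79 FPKM in WT, a ratio of -0.30 with p = 0.0624 and q = 0.858 in the authors' deposited table. Both tissues had the lower value in vKO, and no call was made in either.

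The sequences before the starts of Cldn5 and Lsr are shown because these were the members that fell in cortex. Each is the 250 bases ahead of the RefSeq start in GRCm38.p6, read along the gene's own strand. Capitals mark matches, on either strand, to 5 short motifs: TCAAAG of TCF and LEF factors, through which beta-catenin acts, ATTGTT of SOX factors, CCGGAA of ETS factors, the CCAAT box and GGGCGG, the GC box of SP1. The first sequence is chr16:18776597-18776846, plus strand, and the second chr7:30973470-30973719, minus strand.
Cldn5: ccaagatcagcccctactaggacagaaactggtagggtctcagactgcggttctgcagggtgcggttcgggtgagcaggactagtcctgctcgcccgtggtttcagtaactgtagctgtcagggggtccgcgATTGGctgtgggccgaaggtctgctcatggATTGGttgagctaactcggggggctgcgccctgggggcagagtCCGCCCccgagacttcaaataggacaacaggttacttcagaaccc
Lsr: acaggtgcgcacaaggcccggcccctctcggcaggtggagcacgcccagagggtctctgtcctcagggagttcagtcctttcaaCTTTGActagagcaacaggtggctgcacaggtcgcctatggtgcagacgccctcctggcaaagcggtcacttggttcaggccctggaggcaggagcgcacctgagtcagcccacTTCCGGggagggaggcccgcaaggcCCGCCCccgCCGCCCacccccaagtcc

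The Cldn5 window held CCAAT boxes that begin 118 and 88 bases before the start and a GC box 45 bases before it, all as reverse complements. The Lsr window held 1 TCF and LEF core, 1 ETS core and 2 GC boxes. No matches overlapped within these windows. Over 32851 windows of the same length, 13.8% held the TCF and LEF core, 9.42% the SOX core, 12.0% the ETS core, 33.8% a CCAAT box and 32.7% a GC box. RefSeq gave 12 windows for 8 of the 9 genes (all but Jam2). The TCF and LEF core was matched in the window of Lsr, and the SOX core in none of the 12. These are matches of letters in short windows, and no binding was measured.

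Ocln encodes occludin, a membrane protein of the belt that regulates the junction more than it builds it. It had 2.34 FPKM in vKO cortex and 3.25 FPKM in WT cortex, and 3.39 FPKM in vKO subcortex and 3.91 FPKM in WT subcortex. Both tissues had the lower value in vKO, with ratios of -0.35 and -0.16. The authors' deposited table gives q-values of 0.0949 and 0.999, so neither was called, and the unadjusted p-value in cortex was 0.0241 in the authors' deposited table.

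Neither gene of the junctional adhesion molecules was called in either tissue. F11r encodes JAM-A, which sits at endothelial and epithelial junctions and also on platelets and leukocytes. It had 2.06 FPKM in vKO cortex and 1.27 FPKM in WT cortex, and 1.76 FPKM in vKO subcortex and 1.22 FPKM in WT subcortex. The vKO value was the higher one in both tissues, and the ratios of 0.43 and 0.31 were the highest of the set in each. The q-value in cortex, 0.0530, lay just above the threshold and that in subcortex was 0.844, both in the authors' deposited table. Beside it in cortex, the platelet chemokine gene Pf4 had 18.1 FPKM in vKO and 7.04 in WT, and microglial genes were higher. Of the 6 platelet markers 2 were tested in cortex, Pf4 rose, Gp6 was listed at 0 in both groups, and the list summed to 20.1 FPKM in vKO and 8.99 FPKM in WT cortex. Most of that sum was Pf4: the platelet receptor gene Gp1ba had 1.42 FPKM in vKO and 1.39 in WT cortex (q = 0.958 in the authors' deposited table), and Itga2b had 0.385 in vKO and 0.410 in WT cortex. The part of blood cells in the F11r values was not tested.

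Jam2 encodes JAM-B, a partner of other adhesion molecules at the junctions of endothelium. It had 5.73 FPKM in vKO cortex and 5.99 FPKM in WT cortex, and 8.77 FPKM in vKO subcortex and 8.42 FPKM in WT subcortex. The ratios were -0.05 in cortex and 0.05 in subcortex, with q-values of 0.841 and 0.999 in the authors' deposited table. Without replicate values no interval can be set on these differences.

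The cytoplasmic scaffolds were Tjp1 and Cgnl1. Tjp1 encodes ZO-1, the scaffold to which most claudins bind. It had 13.0 FPKM in vKO cortex and 16.2 FPKM in WT cortex, and 14.1 FPKM in vKO subcortex and 13.6 FPKM in WT subcortex. It was not called in either tissue, with q-values of 0.113 and 0.999 in the authors' deposited table. The 7049-base transcript falls where the median ratio of all tested entries in cortex was -0.32, and with the length trend removed the ratio of -0.30 was 0.02. Cgnl1 encodes paracingulin, a relative of cingulin that sits at the cytoplasmic face of junctions. It had 2.43 FPKM in vKO cortex and 3.06 FPKM in WT cortex, and 2.73 FPKM in vKO subcortex and 3.08 FPKM in WT subcortex. It was lower in vKO in both tissues without a call, and its ratio in cortex of -0.24 became -0.02 with the length trend removed (transcript of 6754 bases). The q-values of Cgnl1 were 0.180 and 0.999 in the authors' deposited table.

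**Figure D2:**
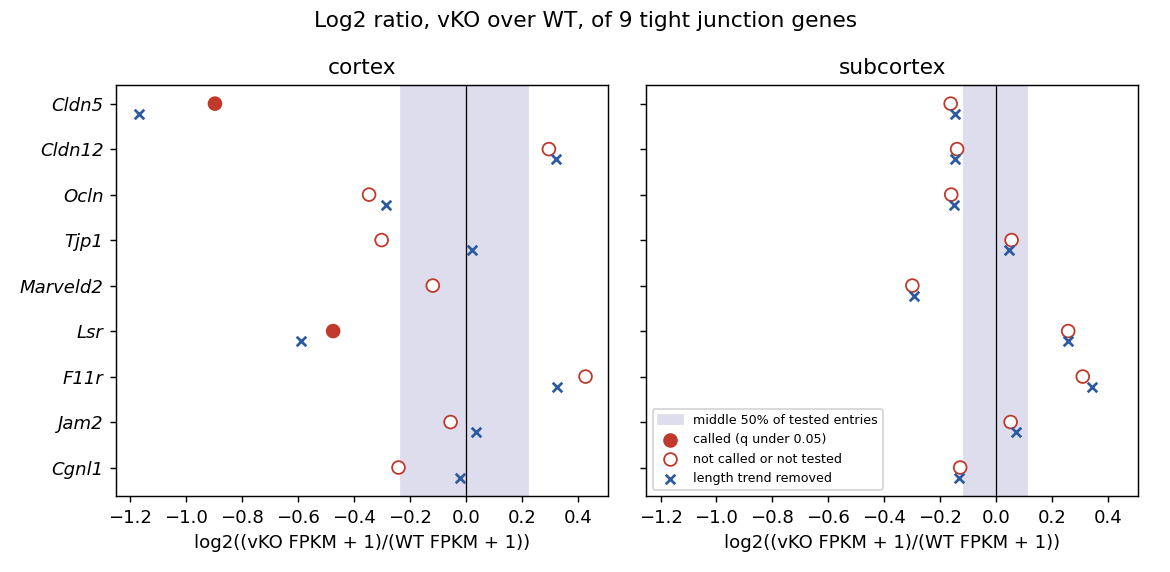
Log2 ratio, vKO over WT, of each tight junction gene in cortex and in subcortex, where filled circles are called genes, open circles are genes not called or not tested, crosses are ratios with the length trend removed, and the band is the middle 50% of tested entries. Cldn5 lies at -0.90 in cortex and -0.16 in subcortex, and F11r lies to the right of the band in both tissues.

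Counted over the set, 2 of the 8 genes tested in cortex fell and 0 rose. Among all 13594 tested entries of the cortex the authors' deposited table called 19.5%, 11.3% lower in vKO and 8.15% higher, so a share of 2 in 8 is near the background and is no result about the set. The median ratio of the 8 was -0.27, beside 0.00 over all tested entries, with 6 ratios below 0 and 2 above. With the length trend removed the median of the 8 was 0.00035, while the ratios of Cldn5 and Lsr were -1.17 and -0.59. In subcortex 0 of 9 were called by the authors' deposited table, where 0.714% of 13735 tested entries were, 0.451% higher and 0.262% lower. At an unadjusted p-value under 0.05 the authors' deposited table holds 6 of the 8 in cortex (Cldn5, Lsr, Ocln and Tjp1 lower, Cldn12 and F11r higher), beside 32.1% of all tested entries, and 0 of the 9 in subcortex, beside 6.31%. At a q-value under 0.01 the count in cortex was 1, Cldn5, beside a background of 11.3%, and with a minimum of 1.5-fold it was again Cldn5 alone, beside 11.2%. The median ratio was -0.13 in subcortex, beside -0.00 over all tested entries, and ratios ranged between -0.30 for Marveld2 and 0.31 for F11r.

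**Figure D3:**
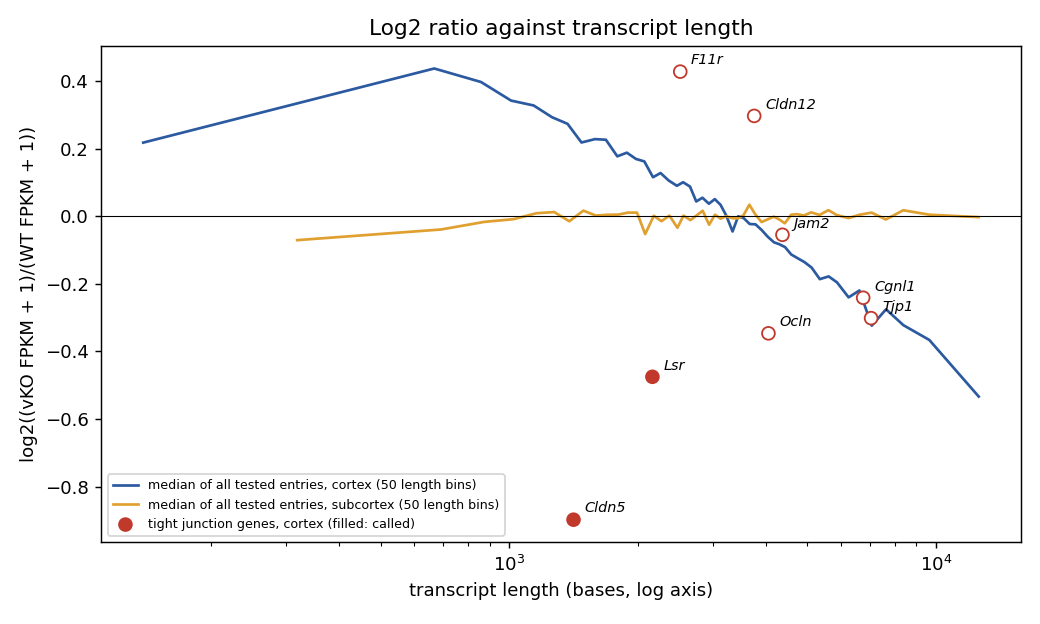
Log2 ratio, vKO over WT, against transcript length in bases on a log axis, where lines are the medians of all tested entries in 50 length bins for each tissue, and circles are the tested tight junction genes in cortex (filled if called). The cortex line falls with length and the subcortex line stays near 0, and Cldn5, at 1416 bases, lies at -0.90 where the line is at 0.27.

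The order of the genes by FPKM was much the same in the 4 groups. Cldn5 led, Tjp1 came second, Jam2, Lsr and Cldn12 held places 3 to 5 in varying order, and Ocln, Cgnl1, F11r and Marveld2 held places 6 to 9. The 9 genes together summed to 61.5 FPKM in vKO cortex and 88.4 in WT cortex, and to 82.2 in vKO subcortex and 86.4 in WT subcortex. Cldn5 made up 40.1% of that sum in vKO cortex and 52.9% in WT cortex, and 45.7% in vKO subcortex and 48.8% in WT subcortex. Cldn12 held place 3 in vKO cortex, ahead of Jam2, and place 5 in WT cortex, behind Jam2 and Lsr. In cortex Tjp1 stood 1.90-fold below Cldn5 in vKO and 2.88-fold below it in WT.

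Genes listed here as pan-endothelial, whose spread over types of vessel was not checked, were set beside Cldn5. Of 20 such genes, all tested in both tissues, 5 rose and 3 fell in cortex, where 8.15% of all tested entries were called higher and 11.3% lower, with a median ratio of 0.00 and a summed level of 131 FPKM in vKO and 122 FPKM in WT. Cdh5, the adhesion molecule VE-cadherin, had 6.80 FPKM in vKO cortex and 6.89 FPKM in WT cortex. The sialomucin genes Emcn and Cd34 rose in cortex, Emcn to 8.03 FPKM in vKO against 3.30 FPKM in WT and Cd34 to 16.3 FPKM in vKO against 9.07 FPKM in WT. The VEGF receptor genes Kdr and Flt1 and the adhesion gene Esam fell. Of the 20, 1 had a lower ratio than Cldn5 in cortex: Kdr, at -0.93.

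In subcortex the same endothelial genes had a median ratio of 0.35, with 18 of 20 above 0, and summed to 137 FPKM in vKO and 102 FPKM in WT. Pecam1, an adhesion receptor of endothelium, rose to 10.1 FPKM in vKO against 5.12 FPKM in WT, and Cdh5 rose to 6.45 FPKM in vKO against 3.62 FPKM in WT, each with q = 0.0104 in the authors' deposited table. The transcription factor gene Sox17 rose as well, and none of the 20 fell, that is 3 of 20 called beside 0.714% of all tested entries. All 20 had a higher ratio than Cldn5 there. Relative to the median of these genes the ratio of Cldn5 was -0.90 in cortex and -0.52 in subcortex, that of Ocln -0.35 and -0.51, and that of Lsr -0.48 and -0.10. No test was made of these distances, and the tight junction genes other than Cldn5 are not limited to endothelium.

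**Figure D4:**
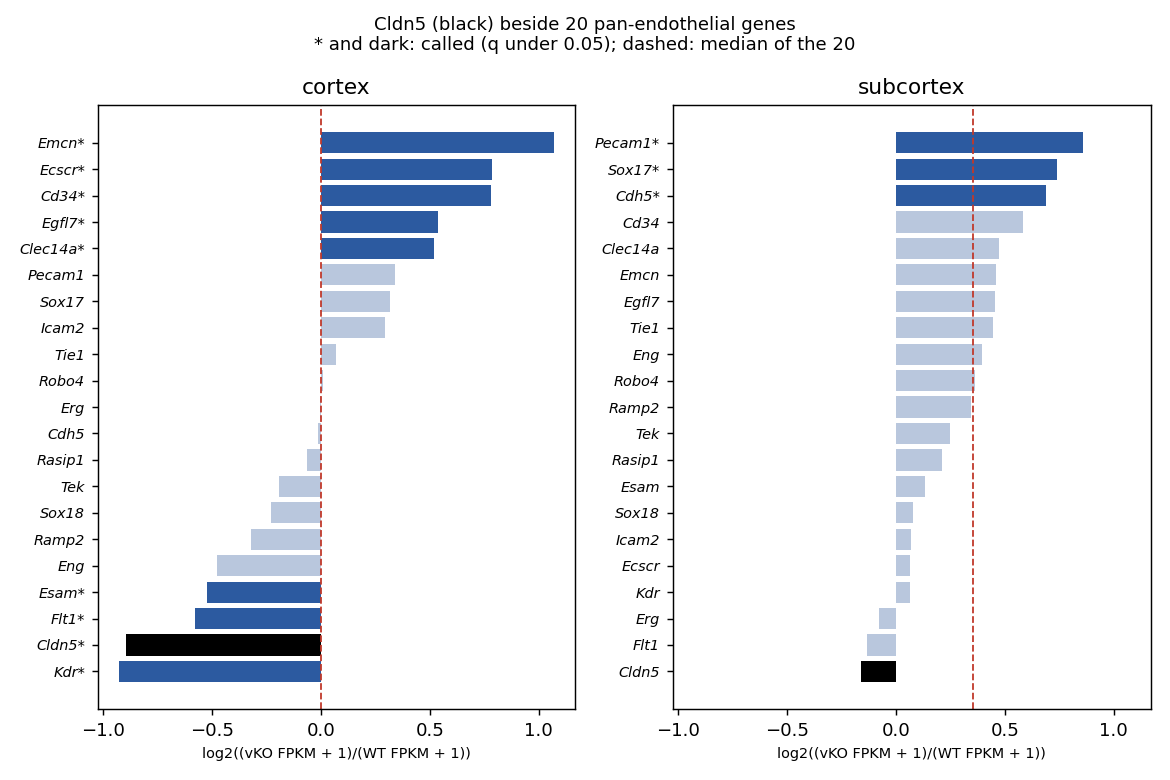
Log2 ratio, vKO over WT, of Cldn5 (black) and 20 pan-endothelial genes, sorted within each tissue, with called genes dark and starred and the median of the 20 dashed. In cortex Cldn5 is second from the bottom, above Kdr, around a median of 0.00, and in subcortex it is at the bottom, where the median is 0.35.

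Other claudins were mostly low. With Cldn5 and Cldn12, 25 claudins had an entry, of which 8 reached 1 FPKM in vKO cortex and 8 in WT cortex, and 7 in vKO subcortex and 6 in WT subcortex. Of the 24 further entries of the claudin list 6 were tested in cortex, with 1 risen and 0 fallen, and 4 in subcortex, again with 1 risen and 0 fallen, beside 19.5% of all tested entries called in cortex and 0.714% in subcortex. The count in cortex is near that background. Their medians were 0.05 and 0.01, beside 0.00 and -0.00 over all tested entries. The entry that rose in cortex was Cldn11, a claudin of oligodendrocyte myelin and of the arachnoid barrier. It had 13.5 FPKM in vKO cortex and 9.12 FPKM in WT cortex, and 7.89 FPKM in vKO subcortex and 8.16 FPKM in WT subcortex. Its ratio in cortex was 0.52 with q = 0.0119 in the authors' deposited table, and 0.33 with the length trend removed. Beside it, the authors' deposited table called none of 8 oligodendrocyte genes in cortex (median ratio 0.02, summed levels of 77.8 FPKM in vKO and 75.9 FPKM in WT). It gave 1 of them an unadjusted p-value under 0.05, beside 32.1% of all tested entries. Of 10 meningeal fibroblast genes, Dcn, Lum and Ogn rose and Slc22a6 fell (median 0.30, summed levels of 101 FPKM in vKO and 84.9 FPKM in WT). None of either list was listed at 0, and the part of these cells in the Cldn11 values was not tested.

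Cldn1, a claudin also made by the choroid plexus, was the claudin that rose in subcortex. It had 3.79 FPKM in vKO and 1.58 FPKM in WT subcortex (ratio 0.89, q = 0.0104 in the authors' deposited table), against 2.45 FPKM in both vKO and WT cortex. Of 9 tested choroid plexus genes in subcortex none was called by the authors' deposited table, beside 0.714% of all tested entries. An unadjusted p-value under 0.05 was given there to 3 of the 9, beside 6.31% of all tested entries. Their median ratio was 0.13, with 6 ratios above 0 and 3 below (Kcnj13, Sostdc1 and Prlr). The summed level of the list was 761 FPKM in vKO and 522 FPKM in WT. Most of that sum was Ttr, the transthyretin gene, at 719 FPKM in vKO and 484 FPKM in WT. It was not called, with p = 0.0047 and q = 0.267 in the authors' deposited table. Of the 10 choroid plexus markers none was listed at 0, and the part of this epithelium in the Cldn1 values was not tested. Cldn3, another claudin of the choroid plexus, had 3.67 FPKM in vKO and 3.37 FPKM in WT cortex, and 1.27 FPKM in vKO and 0.869 FPKM in WT subcortex, where it was not tested. Cldn10 had 2.22 FPKM in vKO and 1.90 FPKM in WT cortex, and 9.32 FPKM in vKO and 8.83 FPKM in WT subcortex. The entry listed as Cldn25 had the highest FPKM of the further claudins, at 16.4 in both vKO and WT cortex and at 23.6 in vKO and 25.5 in WT subcortex. It was matched by symbol alone, and which gene the symbol stands for here was not checked. Cldnd1, a claudin-like gene of the same list, was not found by symbol. Cldn20 was listed at 1.24 FPKM in vKO and 2.48 FPKM in WT cortex with q = 0.837 in the authors' deposited table, in a locus that it shares with other entries. None of Cldn3, Cldn10, Cldn20 and Cldn25 was called.

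Among 10 further membrane proteins of tight junctions, 6 were tested in cortex and 7 in subcortex, and 1 fell in cortex, a share near the background of 11.3% called lower. In subcortex none was called by the authors' deposited table, where 0.714% of all tested entries were, so this count is near the background. There 0 had an unadjusted p-value under 0.05, beside 6.31% of all tested entries. The gene that fell was Esam, an endothelial adhesion molecule, which had 6.13 FPKM in vKO cortex and 9.25 FPKM in WT cortex (ratio -0.52, q = 0.0167 in the authors' deposited table), against 7.08 FPKM in vKO subcortex and 6.36 FPKM in WT subcortex. Its ratio with the length trend removed was -0.71. The adhesion genes Cxadr and Clmp had the highest FPKM of this list in subcortex, Cxadr with 134 FPKM in vKO and 145 FPKM in WT and Clmp with 27.2 FPKM in vKO and 31.5 FPKM in WT, and were not called. The medians of the list were -0.01 in cortex and -0.05 in subcortex.

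Scaffolds and partners numbered 28, all tested, and 1 rose and 4 fell in cortex by the authors' deposited table, that is 5 of 28 beside a background of 19.5%. Their median ratio was -0.11, and 0.01 with the length trend removed. Afap1, which binds actin filaments, had 10.6 FPKM in vKO cortex and 18.6 FPKM in WT cortex, and the scaffold gene Magi2 had 16.1 FPKM in vKO and 23.9 FPKM in WT. Ash1l is best known as a histone methyltransferase and had 13.9 FPKM in vKO and 23.0 FPKM in WT cortex. With the length trend removed its ratio of -0.69 was -0.16, that of Afap1 -0.54 in place of -0.76, and that of Magi2 -0.32 in place of -0.54. The fourth to fall was Mllt4, the gene of afadin. Rab13, a small GTPase that carries junction proteins to the membrane, rose to 10.8 FPKM in vKO cortex against 6.32 FPKM in WT cortex (ratio 0.69, and 0.42 with the length trend removed). In subcortex 0 of the 28 were called by the authors' deposited table, where 0.714% of all tested entries were, so this count is near the background. There 0 had an unadjusted p-value under 0.05, beside 6.31% of all tested entries. The genes with the highest FPKM of this list in subcortex were Vapa, with 109 FPKM in vKO and 113 FPKM in WT, and Ybx3, with 44.4 FPKM in vKO and 44.3 FPKM in WT.

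Adherens junctions lie beside tight junctions and share partners with them. Of 11 genes, 2 fell and 0 rose in cortex, and 2 rose and 0 fell in subcortex, by the authors' deposited table. The count in cortex is near the background of 19.5% called, and that in subcortex stands beside 0.714%. Those that fell in cortex were Ctnnd1, the gene of p120 catenin, with 19.1 FPKM in vKO and 28.9 FPKM in WT, and Ptprb, the endothelial phosphatase VE-PTP, with 1.77 FPKM in vKO and 2.78 FPKM in WT. With the length trend removed the ratio of Ptprb, -0.45, was 0.08. The genes that rose in subcortex were Cdh5 and Pecam1, described above. Ctnnb1, the gene of beta-catenin, chosen with its values known, stood at 257 FPKM in vKO and 256 FPKM in WT cortex.

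**Figure D5:**
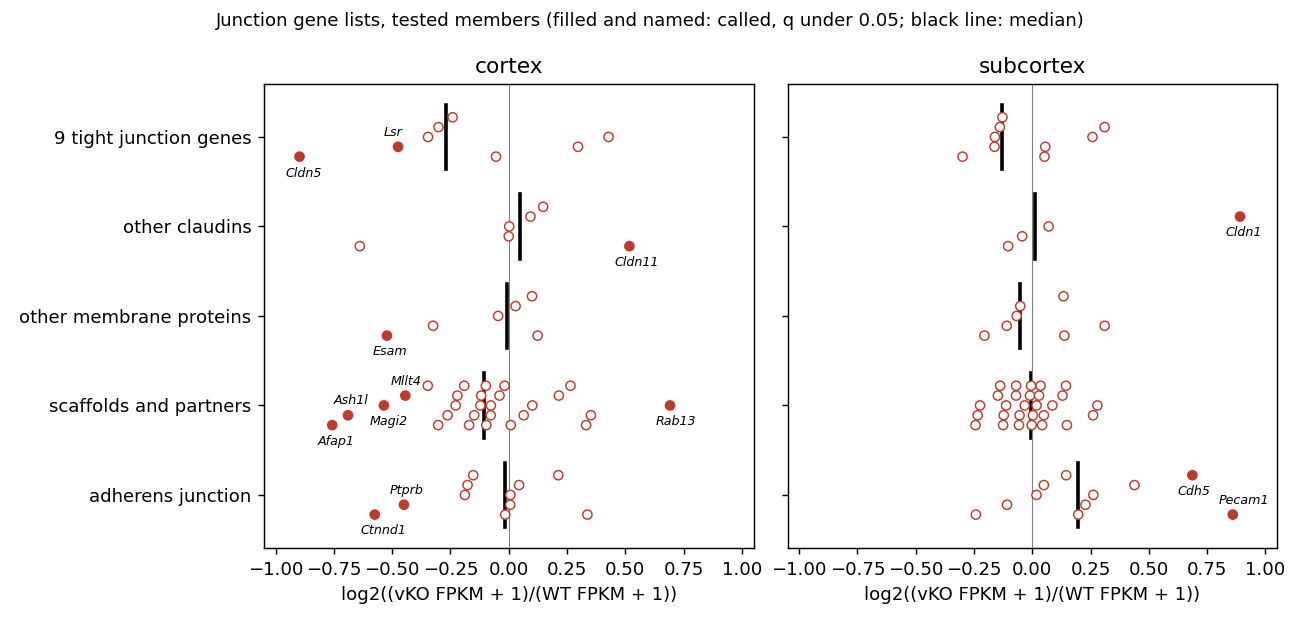
Log2 ratio, vKO over WT, of the tested members of 5 junction gene lists in cortex and subcortex, with called genes filled and named and a black line at each list's median. Cldn5 is the lowest point of the cortex panel at -0.90, and in subcortex the called genes, Cldn1, Cdh5 and Pecam1, are all higher in vKO.

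The entries most like Cldn5 in their levels over the 4 groups were sought among 13165 entries tested in both tissues with at least 1 FPKM in a group, by the Euclidean distance between log2(FPKM + 1) values centred on each gene's mean. They were Sptbn4 (distance 0.04), Ghrl (0.08), Ppp1r3e (0.08), Kcnh4 (0.10) and Mospd3 (0.11). None of them is in the pan-endothelial or junction lists. Sptbn4, a spectrin gene, had 6.48 FPKM in vKO cortex and 12.9 FPKM in WT cortex, and 10.5 FPKM in vKO subcortex and 12.0 FPKM in WT subcortex. With 4 values per gene, such likeness describes these group values and no more.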

How the data were processed

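Libraries were made from total RNA with a stranded kit, per the labels' protocols. The submitters' processing notes name mm10, HISAT2 2.0.1, Cufflinks 2.2.1 and Cuffdiff. The FPKM values are 1 per gene and group, per the file headers, and were taken to be computed by the authors from all replicates. Each p-value and q-value comes from the test the authors ran, and entries not marked OK in the deposited tables were not tested. The letters W and M of the group names were read as WT and vKO. Ratios were computed here with Python 3.11.15 and a pseudocount of 1 FPKM. Transcript length is the longest coding transcript of GENCODE M21, or the longest transcript of a gene without a coding one (matched for 99.1% of tested entries in each tissue). To remove the length trend, each ratio had the median of its length bin (50 bins of equal number) taken off, a step tested on simulated data. Genes outside the set are named by rule: up to 4 called genes of a list with the lowest q-values, otherwise the 2 with the highest FPKM, and claudins of at least 1 FPKM. The set and the lists were chosen with earlier results of these data known, and the lists of tissue and sex markers and the motifs were added after the files were seen. Mllt4 and the marker genes of other cell types fall outside the rule and were named with their values seen. Replicates are not said to be separate animals. 1 platelet marker and 1 cortical marker are not reported here, and no count or sum includes them.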

Additional observations from a re-analysis of the deposited data

How the results depend on the processing

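Cldn5 kept its call in cortex under every threshold tried, whereas the count of 2 called tight junction genes became 1 at a q-value under 0.01, 1 with a minimum of 1.5-fold and 6 at an unadjusted p-value under 0.05, of which 2 were higher. Of all tested entries in cortex, 11.3% passed a q-value under 0.01, 11.2% the minimum of 1.5-fold and 32.1% the unadjusted p-value. The median ratio of the set in cortex, -0.27, was 0.00035 with the length trend removed. At a q-value under 0.01 the other claudins had 0 calls in cortex and 0 in subcortex, the other membrane proteins 0 in cortex and the adherens genes 0 in subcortex, where no entry of the table passes that threshold. With a minimum of 1.5-fold the other claudins had 0 calls of 6 tested in cortex and the scaffolds 3 of 28, beside 11.2%. At an unadjusted p-value under 0.05 the other membrane proteins had 2 of 6 tested and the scaffolds 9 of 28 in cortex. Both counts are near the background of 32.1%. A minimum of 1 FPKM changed none of these counts, and no threshold gave a call in the tight junction set in subcortex. The counts differ by the construction of the thresholds, and the cause of the length trend was not tested. In cortex the ratios of Cldn5 and Lsr changed sign under no setting, while those of Tjp1 and Jam2 did so with the length trend removed. In subcortex those of Tjp1, Lsr, F11r and Jam2 did so relative to the pan-endothelial median. No paired analysis was possible because the tables hold 1 value per group, and for the same reason no replicate could be left out.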
